A study of Mus musculus with 8 samples.

Results

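The genes described here are 46 mouse genes of mitosis and the mitotic spindle, listed by name for their known roles in cell division. In each sample, a gene was given the FPKM (sequenced fragments scaled to transcript length and to the mapped fragments of the sample) summed over its transcription start entries, or over its transcription end entries where those had the higher mean. Of the 46 genes, 44 had a value and all 44 passed the filter on low values, out of 13273 genes with a value and 10370 tested. Foxm1 and Ncapd2 had no entry under their own identifier and are described separately.

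The transcriptome of intestinal organoids was measured by RNA sequencing in 4 WT and 4 MG53-TG samples. The organoids were grown from small-intestinal crypts in Matrigel with IntestiCult OGM medium. MG53-TG mice overexpress MG53, a tripartite motif protein encoded by Trim72, in the whole body, and the WT mice were their littermates. The promoter of the transgene, the age and sex of the mice, the passage of the cultures and the animal behind each sample are not given in the sources used here, so the p-values measure the spread between these samples only. The paper also describes organoids of an Lgr5 reporter cross (MG53;Lgr5 and Lgr5), and the labels of the samples name only mg53-tg and wt. Trim72 was without an entry in all 4 WT samples, and MG53-TG samples 1 to 4 held 16.4, 27.4, 31.9 and 36.5 FPKM of it. Epcam, an epithelial adhesion protein, was at 398 to 490 FPKM in WT and 410 to 507 FPKM in MG53-TG samples. Of the 7 epithelial markers, Cdh1, Krt18, Krt8 and Cldn7 were lower (log2 fold changes -0.80, -1.10, -0.37 and -0.36) and Vil1, a brush border protein, higher (1.10), with 2 lower under median-of-ratios scaling, and all 7 had values in every sample. Every endothelial marker examined (5 of 5) and 7 of 10 immune markers had no entry. The number of reads per sample is not known from these files, and the FPKM summed over all start entries ran from 269094 to 284330.

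As background, the intestinal epithelium is renewed by stem cells at the crypt base and by their fast-dividing progeny, the transit-amplifying cells, and cells stop dividing as they mature. Entry into mitosis is driven by cyclin-dependent kinase bound to cyclin A or cyclin B, and a spindle of microtubules then attaches to the kinetochores, which are built on the centromeres. The spindle assembly checkpoint holds the anaphase-promoting complex until every chromosome is attached. This ubiquitin ligase then marks securin and the cyclins for destruction, separase opens cohesin, and the midzone of the spindle directs cytokinesis. Most genes of this programme are transcribed late in the cell cycle, through promoter elements called the CHR (cell cycle genes homology region) and the CCAAT box.

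The level of mitosis and spindle genes was compared between MG53-TG and WT organoids. Of the 44 genes tested, 39 were lower in MG53-TG and 0 were higher at an adjusted p of at most 0.05 (limma on log2(FPKM + 1), Benjamini-Hochberg adjustment over all genes tested). This is 88.6% of the genes, against 29.2% of all genes tested that were called lower and 15.4% called higher. The log2 fold change was negative for all 44 genes, from -1.88 for Ube2c to -0.20 for Pttg1, with a median of -1.54 against -0.17 over all genes. On the FPKM scale, the WT mean was 1.17 to 3.52 times the MG53-TG mean (median 2.91) and at least 2 times it for 41 genes. Every MG53-TG value lay below every WT value for 37 of the 44 genes, against 29.2% of all genes tested. The genes called lower covered all 8 functional groups described here. In such bulk samples, fewer dividing cells and less of these RNAs per cell cannot be told apart.

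**Figure D1:**
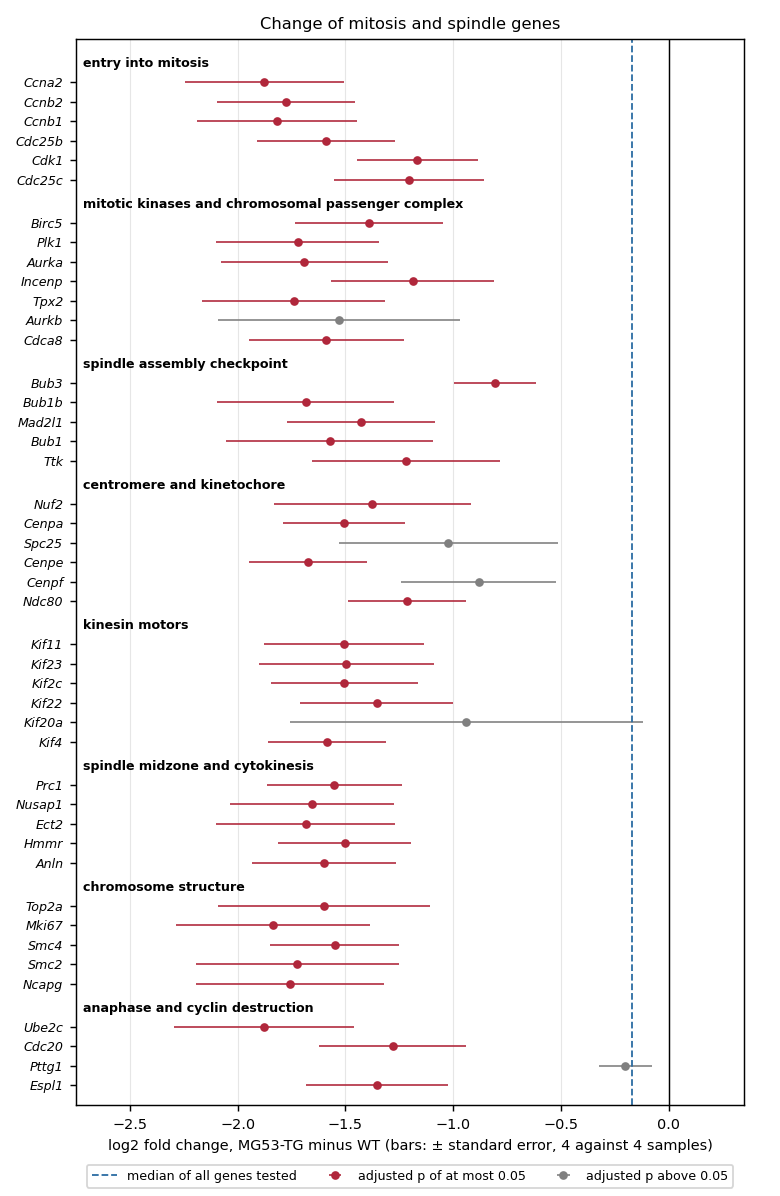
Log2 fold change (MG53-TG minus WT, log2(FPKM + 1) scale) of 44 mitosis and spindle genes by functional group, with bars of ± 1 standard error (4 against 4 samples) and the median of all genes tested as a dashed line. All 44 points lie below 0, 43 of them at -0.81 or lower, and Pttg1 lies at -0.20 beside the dashed line at -0.17.

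Median-of-ratios scaling, which moved the median of all genes by 0.16 on the log2 scale, left 38 genes lower, beside 20.4% of all genes, with a median of -1.37. Under that scaling 2115 of 4231 calls over all genes were higher, while without it 34.6% of 4635 calls were. When each sample was left out in turn, 75.0% to 93.2% of the genes were called lower in a fit, beside 22.6% to 32.4% of all genes. Of the genes called in the full comparison, Top2a, Nuf2, Incenp, Ttk, Bub1 and Cdc25c passed in 2 to 5 of the 8 fits. The other 33 passed in all 8, and the same count over all genes was not made.

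The decrease differed in size between the MG53-TG samples. Over the 44 genes, the median level relative to the WT mean of each gene was 53.4%, 53.9%, 24.2% and 12.0% in MG53-TG samples 1 to 4, while it lay between 97.9% and 102% in the WT samples. The same median over 10096 genes with a WT mean over 0.5 FPKM was 89.2%, 92.5%, 80.1% and 77.9%. MG53-TG samples 1 and 2 thus stood near each other, sample 3 below them and sample 4 lowest. Samples 1 and 2 were both above samples 3 and 4 for 42 of the 44 genes, the exceptions being Kif20a and Pttg1. Sample 4 held the lowest MG53-TG value of 41 genes, the exceptions being Cdk1, Ect2 and Pttg1. All the same, the medians of samples 1 and 2 (53.4% and 53.9%) were also below those over the 10096 genes (89.2% and 92.5%). Without MG53-TG sample 4, the median log2 fold change of the 44 genes was -1.18 and 37 (84.1%) were called lower, beside 24.2% of all genes. Without MG53-TG sample 3, 33 (75.0%) were called lower, beside 22.6% of all genes. What set these samples apart was not tested. Trim72, given above, was higher in MG53-TG samples 3 and 4 than in samples 1 and 2, and this relation was not tested.

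**Figure D2:**
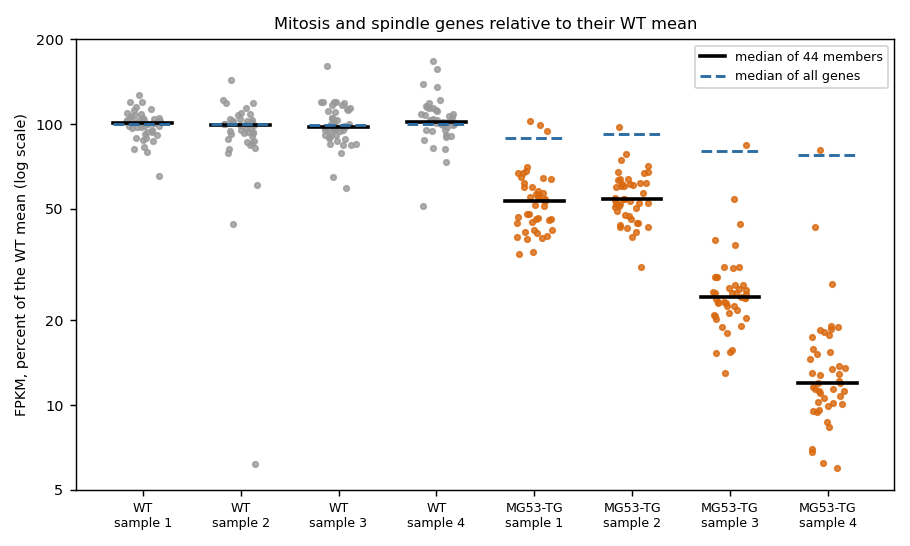
FPKM of each of 44 mitosis and spindle genes as a percentage of its WT mean (log scale) in each of 8 samples, with the median over the genes (black bar) and over 10096 genes of the series (dashed bar). The black bars fall from near 100% in WT samples to 53.4% and 53.9% in MG53-TG samples 1 and 2, 24.2% in sample 3 and 12.0% in sample 4, below the dashed bar in each.

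The promoters of the genes were examined for the elements named above. The genes were listed for their roles in cell division, so the motif shares describe that list. Their part in the decrease was not tested. RefSeq promoter sequences (GRCm38.p6, 250 bases before to 50 bases after the start) were matched by symbol for 38 of the 46 genes. The CHR motif (TTTGAA, or TTCAAA on the other strand) was found in 29 of the 38 promoters (76.3%), against 17.9% of 32851 promoters of all genes, and a CCAAT box (CCAAT or ATTGG) in 30 (78.9%), against 37.4%. A CHR together with at least 2 CCAAT boxes was found in 18 promoters (47.4%), against 2.09% of all. In 26 promoters the CHR lay within 50 bases of the start. Both motifs were searched on both strands, overlapping matches included, and a match describes letters and not binding. The stretch from 100 bases before to 30 bases after the start is printed below for some of the genes. It runs 5′ to 3′ along the gene, with CHR and CCAAT letters in capitals. Ube2c (chr2:164769829-164769958, plus strand) had the most negative fold change, Top2a (chr11:99024160-99024289, minus strand) the next highest WT level, Cdk1 (chr10:69352883-69353012, minus strand) and Ccnb2 (chr9:70421525-70421654, minus strand) drive entry, and Cdc20 (chr4:118437314-118437443, minus strand), Kif22 (chr7:127042391-127042520, minus strand) and Espl1 (chr15:102296193-102296322, plus strand) act in moving and parting the chromosomes. Birc5 (chr11:117849137-117849266, plus strand) and Pttg1 (chr11:43425952-43426081, minus strand) held neither motif in the 300 bases.
Ube2c: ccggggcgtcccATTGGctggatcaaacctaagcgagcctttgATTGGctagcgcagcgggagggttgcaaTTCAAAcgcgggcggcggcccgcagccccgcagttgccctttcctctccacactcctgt
Top2a: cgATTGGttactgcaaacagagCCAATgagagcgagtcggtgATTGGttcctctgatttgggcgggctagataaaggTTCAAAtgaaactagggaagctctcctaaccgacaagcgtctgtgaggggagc
Cdk1: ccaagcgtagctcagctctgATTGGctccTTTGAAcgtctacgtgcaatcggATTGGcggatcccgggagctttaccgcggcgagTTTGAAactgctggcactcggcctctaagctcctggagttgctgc
Ccnb2: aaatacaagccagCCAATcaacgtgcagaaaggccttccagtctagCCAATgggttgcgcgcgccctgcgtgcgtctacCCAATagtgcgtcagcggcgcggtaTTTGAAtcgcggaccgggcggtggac
Cdc20: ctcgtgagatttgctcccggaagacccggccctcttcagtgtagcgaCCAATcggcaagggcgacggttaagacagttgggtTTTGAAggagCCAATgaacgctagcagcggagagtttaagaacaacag
Kif22: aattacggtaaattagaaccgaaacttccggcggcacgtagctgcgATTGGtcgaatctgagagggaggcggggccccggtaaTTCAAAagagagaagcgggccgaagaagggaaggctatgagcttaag
Espl1: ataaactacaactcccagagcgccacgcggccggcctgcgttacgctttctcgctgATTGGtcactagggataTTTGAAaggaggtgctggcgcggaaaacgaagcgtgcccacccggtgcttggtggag
Birc5: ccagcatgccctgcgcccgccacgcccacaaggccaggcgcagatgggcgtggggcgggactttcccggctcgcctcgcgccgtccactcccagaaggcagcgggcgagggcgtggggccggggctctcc
Pttg1: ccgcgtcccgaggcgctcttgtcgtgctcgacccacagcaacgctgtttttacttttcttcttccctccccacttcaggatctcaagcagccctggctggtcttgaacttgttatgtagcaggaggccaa
In the Ube2c promoter the CHR nearest the start began 29 bases before the start, in Top2a 23, in Cdk1 15, in Cdc20 18, in Kif22 17 and in Espl1 27. Each of these was preceded by an ATTGG or CCAAT closer than 100 bases to the start, and Cdk1, Top2a and Kif22 held another CHR farther upstream (71, 179 and 215 bases before the start). Of the 2 CHR of Ccnb2, the first began 167 bases before the start and the other, printed here, just after it. The start in the RefSeq sequence lay within 100 bases of the strongest start entry in the files for 30 of 36 genes, and it was farther off in, among others, Kif2c (3867 bases), Kif4 (328), Pttg1 (270) and Mad2l1 (169). Of the 5 genes with neither motif in these 300 bases (Mad2l1, Birc5, Nuf2, Nusap1 and Pttg1), 4 were called lower and Pttg1 was not. Ccnb1, Cdc25b, Bub1 and Cenpe, which are not printed, held a CCAAT box but neither TTTGAA nor TTCAAA, the only CHR letters searched. All of them were called lower.

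The genes of entry into mitosis were all lower (6 of 6 tested), with a median log2 fold change of -1.68. Ccna2, which encodes cyclin A2 (chr3:36564865-36572150, minus strand), was at 67.9, 60.9, 64.8 and 65.7 FPKM in WT samples 1 to 4 and 28.8, 28.4, 12.4 and 7.75 FPKM in MG53-TG samples 1 to 4. The highest MG53-TG value was under the lowest WT value by more than the highest MG53-TG value itself, and the log2 fold change was -1.88 ± 0.37 (SE, adjusted p = 0.00391). Ccnb2, which encodes cyclin B2, was at 53.3, 51.6, 56.9 and 54.8 FPKM in WT and 22.7, 23.2, 13.6 and 7.03 FPKM in MG53-TG samples (log2 fold change -1.78 ± 0.32, adjusted p = 0.00250). Ccnb1, which encodes cyclin B1, the activating partner of Cdk1, was at 33.6, 34.9, 28.3 and 31.2 FPKM in WT and 14.6, 13.8, 6.50 and 3.39 FPKM in MG53-TG samples (-1.82 ± 0.37, adjusted p = 0.00470). The groups of values of the 3 cyclins did not overlap, and in each cyclin MG53-TG samples 3 and 4 lay below samples 1 and 2. Cdk1, the kinase of mitotic entry, fell from a mean of 15.9 ± 3.11 to 6.91 ± 3.15 FPKM (SD, n = 4 each, limma adjusted p = 0.00997). Cdc25b and Cdc25c, the phosphatases that activate it, had log2 fold changes of -1.59 and -1.20. Foxm1 (ENSMUSG00000001517), the transcription factor that drives late cell cycle genes, had its entries under ENSMUSG00000001520, the identifier of its neighbour Nrip2. Taken by exon coordinates, it was at 11.5, 13.7, 11.5 and 12.2 FPKM in WT and 7.38, 5.40, 2.45 and 1.39 FPKM in MG53-TG samples. The groups did not overlap, and the log2 fold change was -1.52 ± 0.35 (adjusted p = 0.00875).

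**Figure D3:**
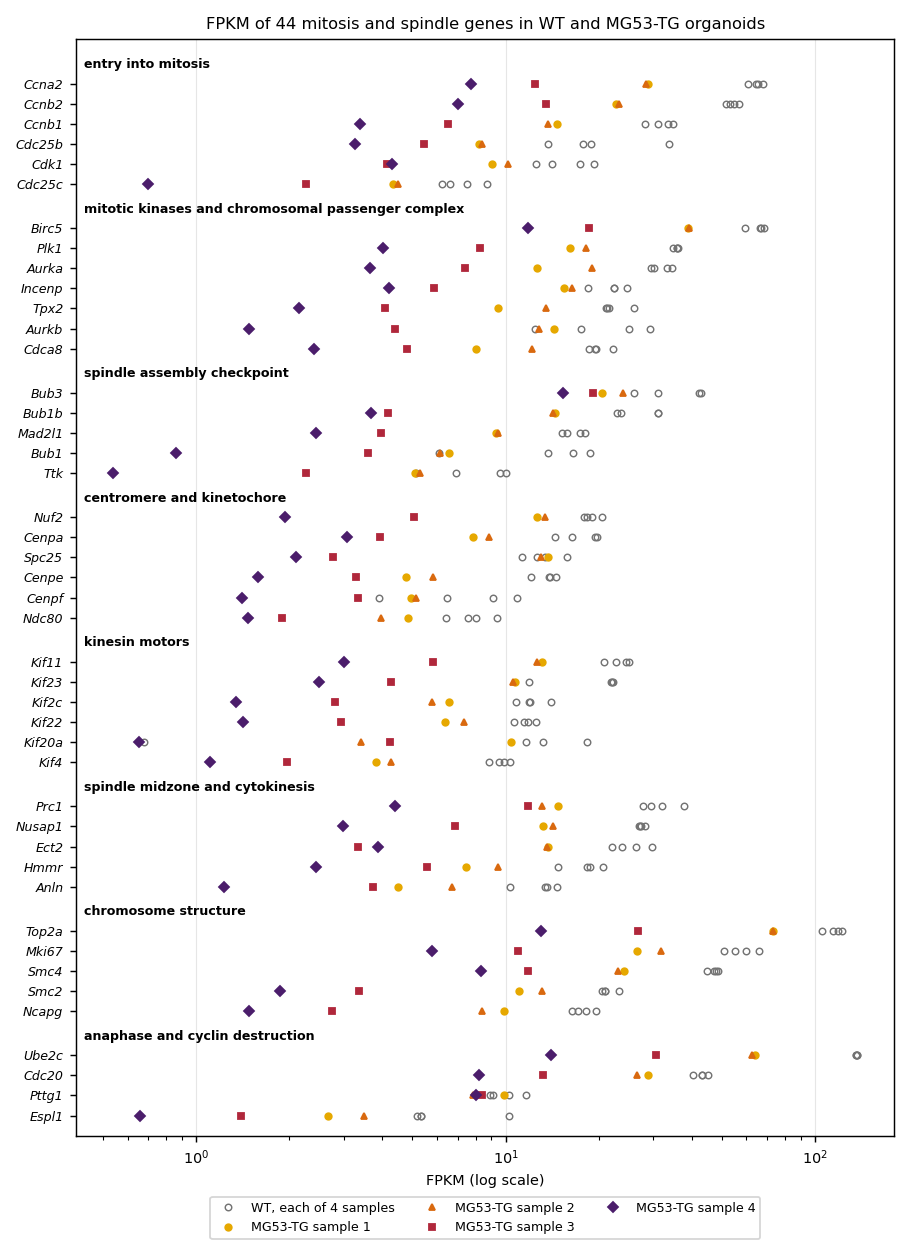
FPKM (log scale) of 44 mitosis and spindle genes by functional group, with 4 WT samples as open circles and MG53-TG samples 1 to 4 as filled markers. For 37 genes all filled markers lie left of all open circles, and sample 4 (diamonds) lies leftmost of the MG53-TG samples for 41 genes.

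Of the mitotic kinases and the chromosomal passenger complex, 6 of 7 genes were lower and the median was -1.59. Birc5, which encodes survivin, a subunit of that complex (chr11:117849251-117855743, plus strand), was at 68.3, 67.0, 59.5 and 66.5 FPKM in WT and 38.9, 39.2, 18.7 and 11.8 FPKM in MG53-TG samples (log2 fold change -1.39 ± 0.34, adjusted p = 0.0111). Plk1, the polo-like kinase of centrosome maturation and mitotic exit, was at 35.9, 35.9, 34.9 and 36.1 FPKM in WT and 16.2, 18.2, 8.24 and 4.02 FPKM in MG53-TG samples (-1.72 ± 0.38, adjusted p = 0.00651). Both had tightly placed WT values, all above the MG53-TG values. Aurka, the spindle pole kinase, was at 29.5, 33.2, 30.3 and 34.6 FPKM in WT and 12.7, 19.0, 7.41 and 3.64 FPKM in MG53-TG samples (-1.69 ± 0.39, adjusted p = 0.00784). Tpx2, its activator on the spindle, had a log2 fold change of -1.74, Cdca8 (borealin) of -1.59 and Incenp, the scaffold of the passenger complex, of -1.19. Aurkb, the kinase subunit of the complex, was the member of this group that missed the threshold. It was at 17.5, 25.1, 12.5 and 29.3 FPKM in WT and 14.3, 12.9, 4.40 and 1.48 FPKM in MG53-TG samples. Its WT values spread widely and the lowest of them lay below MG53-TG samples 1 and 2, so the groups overlapped (log2 fold change -1.53 ± 0.56, adjusted p = 0.0527). Without MG53-TG sample 1 the adjusted p of Aurkb was 0.0257, and without sample 2 it was 0.0318. These values rest on its start entries (mean 14.7 FPKM). Its end entries held a mean of 0.875 FPKM, and with end entries alone its log2 fold change was -0.17 (adjusted p = 0.631).

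All 5 spindle assembly checkpoint genes were lower, with a median of -1.43. Bub3, a binding partner of Bub1 and BubR1, had the smallest log2 fold change among the genes called (-0.81 ± 0.19, adjusted p = 0.00908). It was at 31.1, 42.3, 42.8 and 26.1 FPKM in WT and 20.5, 24.0, 19.2 and 15.3 FPKM in MG53-TG samples, and the highest MG53-TG value lay just under the lowest WT value. Bub1b, which encodes the checkpoint protein BubR1, was at 31.2, 23.6, 22.9 and 31.1 FPKM in WT and 14.4, 14.2, 4.17 and 3.67 FPKM in MG53-TG samples (-1.68 ± 0.41, adjusted p = 0.0105). Mad2l1, which encodes Mad2, the inhibitor of Cdc20, was at 18.1, 17.4, 15.8 and 15.2 FPKM in WT and 9.29, 9.48, 3.95 and 2.43 FPKM in MG53-TG samples (-1.43 ± 0.34, adjusted p = 0.00985). The MG53-TG values of both genes lay below all WT values. The kinases Bub1 and Ttk were called, although their groups overlapped. Bub1 was at 6.08 FPKM in WT sample 2, against 13.7 to 18.7 FPKM in the other WT samples and 6.57 FPKM in MG53-TG sample 1 (-1.57 ± 0.48, adjusted p = 0.0272). Ttk had a log2 fold change of -1.22 ± 0.44 and an adjusted p of 0.0480, which rose to 0.0660 with median-of-ratios scaling. Its adjusted p was 0.0625 with quantile normalization, 0.0701 with a pseudocount of 0.1, 0.0710 without a filter and 0.0509 with start entries alone.

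Of the centromere and kinetochore genes, 4 of 6 were lower, and the median was -1.29. Nuf2, a subunit of the microtubule-binding Ndc80 complex, was at 18.4, 19.0, 17.9 and 20.5 FPKM in WT and 12.6, 13.4, 5.05 and 1.93 FPKM in MG53-TG samples (log2 fold change -1.37 ± 0.46, adjusted p = 0.0376). Without a filter on low values its adjusted p was 0.0562. Cenpa, the centromeric variant of histone H3, was at 19.7, 16.4, 19.5 and 14.4 FPKM in WT and 7.83, 8.84, 3.93 and 3.07 FPKM in MG53-TG samples (-1.51 ± 0.28, adjusted p = 0.00311). Neither gene overlapped between the groups. Cenpe, a kinetochore motor, had the highest ratio of the WT to the MG53-TG mean of all 44 genes (3.52, log2 fold change -1.67), and Ndc80 itself had a log2 fold change of -1.21. Spc25, which belongs to the same complex as Nuf2 and Ndc80, was not called. It was at 12.7, 13.5, 11.3 and 15.8 FPKM in WT and 13.7, 13.0, 2.78 and 2.11 FPKM in MG53-TG samples. MG53-TG samples 1 and 2 lay within the WT range and samples 3 and 4 far below it (log2 fold change -1.02 ± 0.51, adjusted p = 0.132). Whether Spc25 differed from Nuf2 and Ndc80 in samples 1 and 2 was not tested. Without MG53-TG sample 1 its adjusted p was 0.0467. Cenpf, a large outer kinetochore protein, was at 9.11, 10.9, 6.46 and 3.89 FPKM in WT and 4.94, 5.13, 3.34 and 1.41 FPKM in MG53-TG samples. WT sample 4 lay among the MG53-TG values, and Cenpf was not called (-0.88 ± 0.36, adjusted p = 0.0739). Without WT sample 4 its log2 fold change was -1.13 and its adjusted p 0.0362.

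Among the kinesin motors, 5 of 6 genes were lower, and the median was -1.50. Kif11, the motor that separates the spindle poles, was at 24.6, 22.7, 20.9 and 25.1 FPKM in WT and 13.2, 12.6, 5.85 and 3.01 FPKM in MG53-TG samples (log2 fold change -1.51 ± 0.37, adjusted p = 0.0110). Kif23, the motor subunit of centralspindlin in cytokinesis, was at 22.1, 11.9, 21.9 and 22.3 FPKM in WT and 10.8, 10.6, 4.25 and 2.50 FPKM in MG53-TG samples (-1.50 ± 0.41, adjusted p = 0.0168). WT sample 2 of Kif23 stood apart from the other WT samples and just above the highest MG53-TG value. Kif2c, a microtubule depolymerase at the centromere, was at 12.0, 10.8, 11.9 and 14.1 FPKM in WT and 6.58, 5.77, 2.82 and 1.34 FPKM in MG53-TG samples (-1.50 ± 0.34, adjusted p = 0.00753). The chromosome-bound motors Kif4 and Kif22 had log2 fold changes of -1.58 and -1.36. Kif20a, a motor of the spindle midzone, was the exception. It was at 11.7, 0.676, 13.2 and 18.4 FPKM in WT and 10.4, 3.40, 4.24 and 0.654 FPKM in MG53-TG samples. The WT value in sample 2 was as low as that of MG53-TG sample 4, the groups overlapped, and Kif20a was not called (-0.94 ± 0.82, adjusted p = 0.379). Without WT sample 2 its log2 fold change was -1.73 and its adjusted p 0.0457. The exons of Kif20a share 1271 bases with Cdc23 on the opposite strand, and the sources used here do not say whether the libraries kept the strand.

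All 5 genes of the spindle midzone and cytokinesis were lower, with a narrow range of log2 fold changes from -1.68 to -1.50. Prc1, which bundles the microtubules of the midzone, was at 27.9, 29.5, 37.9 and 32.1 FPKM in WT and 14.8, 13.2, 11.8 and 4.39 FPKM in MG53-TG samples (-1.55 ± 0.31, adjusted p = 0.00440). Nusap1, a spindle microtubule stabiliser, was at 27.0, 27.5, 28.4 and 27.2 FPKM in WT and 13.2, 14.2, 6.85 and 2.97 FPKM in MG53-TG samples (-1.65 ± 0.38, adjusted p = 0.00808). Ect2, the exchange factor that activates RhoA at the cleavage site, was at 23.9, 22.1, 29.8 and 26.4 FPKM in WT and 13.7, 13.7, 3.33 and 3.87 FPKM in MG53-TG samples (-1.68 ± 0.42, adjusted p = 0.0110). None of these 3 genes overlapped between the groups, and Ect2 was lowest in MG53-TG sample 3. Anln, which encodes the contractile ring protein anillin, had a log2 fold change of -1.60, and Hmmr, a spindle-associated hyaluronan receptor, one of -1.50.

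The genes of chromosome structure were lower in 5 of 5 cases, with a median of -1.72. Top2a, the topoisomerase that untangles sister chromatids (chr11:98992943-99024189, minus strand), was at 105, 114, 119 and 122 FPKM in WT and 73.5, 73.5, 26.8 and 13.0 FPKM in MG53-TG samples (log2 fold change -1.60 ± 0.49, adjusted p = 0.0281). Mki67, which encodes the proliferation marker Ki-67 of the chromosome surface (chr7:135689784-135716361, minus strand), was at 60.1, 66.2, 50.7 and 55.2 FPKM in WT and 26.6, 31.8, 11.0 and 5.77 FPKM in MG53-TG samples (-1.84 ± 0.45, adjusted p = 0.0108). Smc4, a core subunit of condensin, was at 48.5, 47.8, 44.8 and 47.2 FPKM in WT and 24.1, 23.1, 11.8 and 8.34 FPKM in MG53-TG samples (-1.55 ± 0.30, adjusted p = 0.00352). In these 3 genes every MG53-TG value lay well under every WT value. The other condensin subunits Smc2 and Ncapg had log2 fold changes of -1.72 and -1.76. Ncapd2 (ENSMUSG00000038252), also of condensin, had its entries under ENSMUSG00000089617, the identifier of Scarna10, a small RNA gene within it. By exon coordinates it was at 27.2, 26.8, 23.7 and 25.9 FPKM in WT and 17.9, 16.9, 5.44 and 3.93 FPKM in MG53-TG samples, with no overlap (-1.40 ± 0.42, adjusted p = 0.0260). When entries of all genes were assigned by coordinates, 41 of the 46 genes (89.1%) were called lower, beside 28.8% of all genes. For Mki67, 21 entries that lay off the gene, at a mean of 5.17 FPKM per sample, were left out. In the paper, Ki-67 staining marked a longer zone in the ileum of MG53-TG mice than in WT littermates. The paper also reports more Ki-67-positive cells in colonic organoids that overexpressed MG53. Those are measures of protein in other material, and the Mki67 RNA was not compared with them.

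Of the genes of anaphase and cyclin destruction, 3 of 4 were lower. Ube2c, the ubiquitin-conjugating enzyme of the anaphase-promoting complex (chr2:164769898-164778822, plus strand), had the highest level of the 44 genes. It was at 136, 137, 136 and 137 FPKM in WT and 63.9, 62.8, 30.7 and 14.0 FPKM in MG53-TG samples. The WT samples hardly differed (SD 0.457 FPKM), the MG53-TG samples were at 10.2% to 46.8% of their mean, and the log2 fold change was -1.88 ± 0.42 (adjusted p = 0.00705). Cdc20, the activator of the same complex, was at 43.4, 43.2, 45.2 and 40.5 FPKM in WT and 28.8, 26.6, 13.2 and 8.19 FPKM in MG53-TG samples (-1.28 ± 0.34, adjusted p = 0.0158). Espl1, which encodes separase, had a log2 fold change of -1.35 and the lowest WT mean of the 44 genes (6.53 FPKM). Pttg1, which encodes securin, the inhibitor of separase, had the smallest log2 fold change of the 44 genes. It was at 8.88, 9.09, 11.7 and 10.3 FPKM in WT and 9.90, 7.83, 8.40 and 8.04 FPKM in MG53-TG samples. MG53-TG sample 1 lay within the WT range, the other MG53-TG samples just below it, and the difference was not called (log2 fold change -0.20 ± 0.12, adjusted p = 0.209). Pttg1 was called in 0 of the 8 fits that left out a sample, and its log2 fold change in them ran from -0.27 to -0.13. For comparison, samples 3 and 4 held 84.2% and 80.5% of the WT mean of Pttg1, against 21.3% and 10.1% for Espl1.

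Genes outside the 46 gave the setting of these values. Of 92 other mitotic genes, 69 (75.0%) were lower, beside 29.2% of all genes tested, and 0 were higher. Their median log2 fold change was -1.10, and their median level was 62.4%, 66.4%, 31.1% and 16.9% of the WT mean in MG53-TG samples 1 to 4. Ube2s, which extends ubiquitin chains for the anaphase-promoting complex, was at 108 to 113 FPKM in WT and 30.1 to 74.1 FPKM in MG53-TG samples (log2 fold change -1.12, adjusted p = 0.00985). Cks2 and Cks1b, small partners of cyclin-dependent kinases, had log2 fold changes of -1.31 and -1.75, and Rad21, a cohesin subunit, one of -0.80, all called. Zwint, a kinetochore protein, went against the list with a log2 fold change of 0.20 that was not called (adjusted p = 0.345), as did Kif3a (0.19), Anapc2 (0.15) and Lin52 (0.06), none of them called. Under median-of-ratios scaling, 58 of the 92 genes were lower and 2 higher. Leaving out a sample gave 46 (without MG53-TG sample 3) to 74 lower genes.

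The genes of DNA replication and S phase, which act before mitosis, were lower in 29 of 49 cases and higher in 0, with a median of -1.16. Dut, which keeps uracil out of DNA, was at 48.5 to 55.7 FPKM in WT and 31.9, 37.6, 8.38 and 7.51 FPKM in MG53-TG samples (log2 fold change -1.58, adjusted p = 0.0276). Pcna, the sliding clamp of DNA polymerases, had the highest level of this list and was not called. It was at 138 to 180 FPKM in WT and 166, 160, 111 and 92.4 FPKM in MG53-TG samples (-0.35, adjusted p = 0.169). Rrm2, a ribonucleotide reductase subunit, was at 47.3 to 49.9 FPKM in WT and 36.6, 38.6, 7.92 and 5.73 FPKM in MG53-TG samples, with no overlap but an adjusted p of 0.0541. Rpa1, a subunit of the protein that coats single-stranded DNA, went against the list at 4.28 to 5.40 FPKM in WT and 11.1, 11.2, 5.13 and 3.13 FPKM in MG53-TG samples (0.44, not called), as did E2f2 (0.23, not called). Fen1 had an entry in MG53-TG sample 1 only (9.02 FPKM). The median level of the list was 68.9%, 79.8%, 22.1% and 15.7% of the WT mean in MG53-TG samples 1 to 4. The count of lower S phase genes changed with the sample left out. It was 9 without WT sample 1 or without MG53-TG sample 3, 10 without WT sample 2 or 4, and 12 without WT sample 3. It was 17 without MG53-TG sample 4, 36 without MG53-TG sample 1 and 40 without MG53-TG sample 2. With all samples 59.2% of the S phase genes were lower, beside 29.2% of all genes. Without any 1 of the WT samples 18.4% to 24.5% were lower, beside 22.6% to 24.1% of all genes. Without MG53-TG sample 3, 18.4% were lower, beside 22.6%. In these 5 fits the share of the list was thus near or below that of all genes. The median log2 fold change of the list in these fits ran from -1.18 to -0.97, beside -1.16 with all samples.

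The p53 targets and cyclin-dependent kinase inhibitors, which restrain division, were lower in 7 and higher in 1 of 23 cases, beside 29.2% lower and 15.4% higher over all genes tested. Their median was -0.15, near that of all genes (-0.17), and 0.04 with median-of-ratios scaling, which left 3 lower and 2 higher. Cdkn1a, which encodes the inhibitor p21, was at 90.2 to 160 FPKM in WT and 126 to 146 FPKM in MG53-TG samples (log2 fold change 0.22, adjusted p = 0.301). Ccng1, a p53 target, had a log2 fold change of -0.15 and was not called. Trp53, which encodes p53, was at 47.9 to 52.0 FPKM in WT and 18.9 to 34.5 FPKM in MG53-TG samples (-0.91, adjusted p = 0.00530). Sesn1, a stress-response gene, was the gene of the list called higher (0.56).

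Markers of the cell types of the organoid also moved with the genotype. The counts below stand beside 29.2% lower and 15.4% higher over all genes tested. Of 15 enterocyte markers, which absorptive cells express once they have stopped dividing, all 15 were higher, and their summed level was 1065 to 1247 FPKM in WT and 12230 to 13540 FPKM in MG53-TG samples. Fabp1, a fatty acid binding protein of the enterocyte, was at 213 to 301 FPKM in WT and 5286 to 6099 FPKM in MG53-TG samples. Fabp2, an intestinal fatty acid binding protein, had 591, 614, 1222 and 1171 FPKM across the 4 MG53-TG samples in turn, and Sis, the sucrase-isomaltase of the brush border, had 561, 631, 1033 and 1111 FPKM. Fabp2 and Sis were thus higher in samples 3 and 4, where the mitotic genes were lower, whereas Fabp1 was at a similar level in all 4. Of 12 markers of crypt base stem cells, 8 were lower and 0 higher, with a summed level of 580 to 777 FPKM in WT and of 349, 362, 118 and 74.6 FPKM in MG53-TG samples 1 to 4, the same order as that of the mitotic genes. Olfm4, a marker of these cells, was at 153 to 291 FPKM in WT and 50.1, 57.7, 6.07 and 0.948 FPKM in the 4 MG53-TG samples in order. Slc12a2 and Smoc2, the next in level, had log2 fold changes of -1.52 and -1.01, and Smoc2 was not called. Lgr5, the receptor that defines these cells, was at 5.73 to 21.7 FPKM in WT and 2.47 to 14.6 FPKM in MG53-TG samples and was not called. Of 7 Paneth markers 6 were lower (1306 to 1739 FPKM in WT, 330 to 600 FPKM in MG53-TG samples). Of 7 goblet markers 5 were lower, and their sum was 184, 257, 425 and 506 FPKM in MG53-TG samples 1 to 4 against 686 to 778 FPKM in WT, so that samples 3 and 4 were above samples 1 and 2. Zg16, a goblet cell lectin, went against this list (log2 fold change 1.33, not called), as did Nupr1 in the Paneth list (0.27, not called). Of 9 enteroendocrine markers 3 were higher and 0 lower, and the median log2 fold change of this list was 0.01. Mesenchyme markers summed to 1.80 to 3.24 FPKM in WT and 1.31 to 5.58 FPKM in MG53-TG samples, with Pdgfra, Pdgfrb, Lum and Acta2 without an entry. The collagen genes Col1a2 and Col3a1 had no entry in WT or in MG53-TG sample 1 and were at 0.739 to 2.07 and 0.904 to 1.62 FPKM in MG53-TG samples 2 to 4. They passed the filter on low values through these samples alone, so their call is not counted here. Immune markers summed to 3.75 to 9.18 FPKM in WT and 0.469 to 1.28 FPKM in MG53-TG samples, nearly all of it from Cd68, the 1 immune marker tested, which was lower (log2 fold change -1.84). The part of the cell type markers in the mitotic result was not tested.

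**Figure D4:**
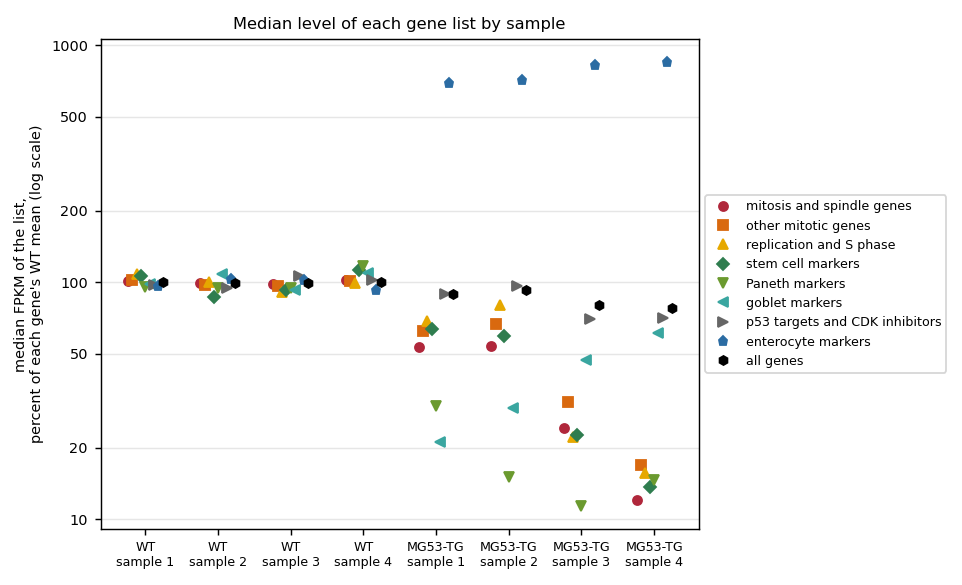
Median FPKM of gene lists in each of 8 samples, as a percentage of the WT mean of each gene (log scale). In MG53-TG samples 3 and 4 the mitosis and spindle genes (24.2% and 12.0%), the other mitotic genes (31.1% and 16.9%) and the replication genes (22.1% and 15.7%) lie below their level in samples 1 and 2, whereas the median of the enterocyte markers, whose members differ in their pattern, lies between 692% and 854% in all 4 samples and goblet markers are higher in samples 3 and 4 (46.9% and 61.1%) than in samples 1 and 2 (21.1% and 29.5%).

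The files describe transcript ends and exons as well as levels, which allowed the same genes to be read in other ways. Of the 44 genes, 41 had both start and end entries, and for 32 of these the smaller sum was at least 90% of the larger. With end entries alone, 34 of the 39 genes tested (87.2%) were called lower, each of the 39 with the same call as before. Over all genes, 2277 of 8094 (28.1%) were then lower. With start entries alone 37 of 43 (86.0%) were lower, 42 genes having the same call and 1 losing it. In that fit 2873 of 9967 genes in all (28.8%) were lower. Skipped exons with enough FPKM to compare were found in 3 of the genes. The exon of Nusap1 (chr2:119633720-119633818) was included in 85.3% to 90.1% of the FPKM in WT and 88.4% to 99.3% in MG53-TG samples (adjusted p = 0.550, limma on the arcsine scale). The exon of Plk1 (chr7:122161507-122161651) was at 90.4% to 92.3% and 88.8% to 98.1% (adjusted p = 0.795), and the exon of Bub3 (chr7:131562298-131562362) at 0.606% to 30.8% and 0.00937% to 2.18% (adjusted p = 0.557). By limma, 0 of the 3 exons were called and 0 had an unadjusted p under 0.05, against 0.993% of 1208 exons called and 137 with an unadjusted p under 0.05 over all genes. The number called over all genes was 12, and 4 to 16 when a sample was left out. The groups overlapped for each of the 3 exons. Of the 46 genes, 16 share exon bases with another annotated gene, 12 of them with a protein-coding gene, such as Ube2c with Tnnc2 (592 bases) and Ccna2 with Exosc9 (510 bases) on the opposite strand.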

How the data were processed

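RNA of intestinal organoids (4 WT samples, 4 MG53-TG samples) was sequenced, and groups were taken from the genotype label. The authors trimmed the reads with Cutadapt and aligned them with Hisat2, and they deposited FPKM values for transcript events (starts, ends, exons and introns) of each sample. The submitters' processing notes list cutadapt 1.9.1, HISAT2 2.0.1, HTSeq 0.6.1, DESeq2 and mm10, and the tool that wrote the event tables is not given in the sources used here. These values are estimates that reach 1e-06 FPKM, so read depth is unknown and intervals that rest on depth were left out. The labels give no batch or date.

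Exact duplicate rows were dropped. A start or end row counted for a gene when it carried the gene's identifier and matched its exons on the same strand (GENCODE vM21, GRCm38), which held for 91.9% to 93.1% of such rows. Where a gene had no row in a sample, its value was set to missing if its median in the rest of that group reached 0.5 FPKM, and to 0 otherwise. Genes whose mean reached 0.5 FPKM were tested by limma 3.58.1 (lmFit, eBayes with trend, R 4.3.3) on log2(FPKM + 1), and adjusted p-values (Benjamini-Hochberg) of at most 0.05 were called. A fold change on this scale understates the change of low genes. Exon inclusion, the share of FPKM with the exon, was tested on the arcsine scale for exons whose 2 events were listed in every sample with a total of 2 FPKM or more and whose mean inclusion was 5% to 95%. In simulated data over 10045 genes for MG53-TG against WT, 75% of genes changed by 1 on the log2 scale and 94% of those changed by 2 were recovered, with 13 unchanged genes called, and 0 calls in data without a change. Whether these rates hold where samples of a group differ together over many genes, as the MG53-TG samples did, was not tested. Python 3.11.15, pandas 2.3.3, numpy 2.4.6 and matplotlib 3.10.9 were used for the rest.

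The genes and all lists were chosen with earlier results of these data known. All 46 genes were accounted for, and values in every sample were given for the 3 genes with the highest mean in each functional group, the 3 most negative and 3 most positive fold changes, and every gene that was not called. From the other lists, some of the 4 genes with the highest mean and of the genes with a fold change against the list were named, and genes outside this rule (such as Lgr5, Cdh1 and Cldn7) were chosen after their values were seen. Alternatives were a pseudocount of 0.1, a filter at 2 FPKM or none, quantile normalization, median-of-ratios scaling, start or end rows only, rows by exon coordinates, absent values as 0, the replicate number as a block and leaving out each sample.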

Additional observations from a re-analysis of the deposited data

Results flagged for a closer look

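Among 88 groups of 4 samples (44 genes in 2 genotypes), 3 values lay far from the other samples of their group by Dixon's criterion at 95%, where chance flags about 1 in 20 groups and so 4.4 of 88. Kif23 was at 11.9 FPKM in WT sample 2, against 21.9 to 22.3 FPKM in the other WT samples. Tpx2 was at 26.1 FPKM in WT sample 4, against 21.2 to 21.6 FPKM in the others. Espl1 was at 10.3 FPKM in WT sample 4, against 5.17 to 5.34 FPKM in the others. All 3 genes were called lower in MG53-TG in each of the 8 comparisons that left out a sample.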

How the results depend on the processing

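The number of mitosis and spindle genes called lower (39 of 44) ran from 34 (of the 39 tested with end rows only, with no call lost) to 41 (of 46 with rows by exon coordinates) under the alternatives that kept all samples, and 0 were called higher in any. Over all genes, 28.1% were lower with end rows only and 28.8% with rows by exon coordinates. Without each sample in turn, 33 to 41 of these genes (75.0% to 93.2%) were lower, beside 22.6% to 32.4% of all genes. Their median log2 fold change was then -1.73 to -1.18. The replicate numbers could not be shown to pair the samples (correlations of same-numbered deviations from -0.05 to 0.09 over 10045 genes), and with the replicate block 39 genes were lower, Bub1 losing the call (adjusted p = 0.0547) and Cenpf gaining it (adjusted p = 0.00413), with 65 other mitotic, 30 S phase and 2761 genes in all lower and 0 exons called. With median-of-ratios scaling, 2 other mitotic and 1 S phase genes were higher, and 3 p53 targets and inhibitors were lower and 2 higher. With quantile normalization these were 1, 1, 4 and 2. Without a filter, 19 S phase genes were lower, and with end rows only 0 p53 targets and inhibitors were higher. The cause was not tested. Leaving out each sample gave 46 to 74 lower and 0 higher other mitotic genes (median -1.31 to -0.85), 9 to 40 lower and 0 to 1 higher S phase genes (median -1.43 to -0.84), 4 to 8 lower and 1 to 2 higher p53 targets and inhibitors (median -0.24 to -0.11), and 2338 to 3351 lower and 1343 to 1557 higher genes in all, with 0 exons of the mitotic genes called. Of the genes not called, Aurkb, Spc25, Cenpf and Kif20a were called in 1 or 2 of these fits. The unknown depth limits low values most.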
